A study of Capra hircus with 3 samples.

Results

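The 10 genes described here encode the enzymes that build and desaturate fatty acids in the goat mammary gland: ACSS2, ACLY, ACACA, FASN, ELOVL5, ELOVL6, SCD, SCD5, FADS1 and FADS2. They were chosen by name and not by a threshold on their values, and were found through their goat NCBI gene IDs as 10 of the 13023 protein-coding genes with deposited values. Mammary tissue was taken surgically, under general anaesthesia with xylazine, from Laoshan dairy goats (Capra hircus, 4 years old and in the third lactation) at early lactation (10 days after parturition), peak lactation (90 days) and late lactation (210 days). All goats were fed freely and kept under natural light, and no treatment other than the anaesthesia is named. The paper describes 5 goats and 15 samples, that is, the same goats at each stage, so the libraries are not of independent animals. RNA of the 5 goats was mixed at each stage into 1 library, named E, P or L. With 1 pooled library per stage the spread between goats cannot be estimated, so all differences below compare libraries, have no replicate check and carry no p-value. Values are FPKM, that is, fragments scaled to transcript length and library size. The depth behind a gene is unknown, because the file holds no read numbers.

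The labels of the P and L libraries are in doubt. Elsewhere in the study's material the differences of these libraries from the E library run the other way round, and each library is therefore named below by its label (E-labelled, P-labelled, L-labelled), with no statement on which of them was the true peak. If the columns were exchanged, every P and L value below would change places.

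Fatty acids of milk come from the blood or are made in the secretory cell. In ruminants the carbon for synthesis comes mainly from acetate made in the rumen and much less from glucose. Cytosolic acetyl-CoA is carboxylated to malonyl-CoA, fatty acid synthase extends the chain to palmitate or releases it earlier, elongases add further carbon pairs, and desaturases place double bonds, so that much of the oleate of milk is made from stearate within the gland.

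The mammary origin of the RNA was clear in all libraries. The casein gene CSN1S1 had 25057, 12017 and 39445 FPKM in the E-, P- and L-labelled libraries, and the luminal keratin KRT19 had 439, 413 and 364 FPKM. Single estimates can fail in these files, since LALBA, the whey protein gene, was listed at 0 in the L-labelled library and at 70053 FPKM in the E-labelled one, and the housekeeping gene HPRT1 had 0.0362 FPKM in the P-labelled library against 8.11 and 6.85 in the others. None of the 10 genes was listed at 0. Each was represented by 1 locus, and no other deposited locus overlapped it.

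Activation of acetate and supply of acetyl-CoA. ACSS2, the cytosolic acetyl-CoA synthetase that activates acetate, is listed on scaffold NW_005100804.1 from 1698099 to 1742702, on an assembly that the file does not name. It had 156 FPKM in the E-labelled, 102 in the P-labelled and 280 in the L-labelled library, so the L-labelled library was the highest and the P-labelled library the lowest. It was 2.75-fold higher in the L-labelled than in the P-labelled library. ACLY, ATP citrate lyase, which cleaves citrate derived from glucose, is listed on scaffold NW_005100886.1 from 17758788 to 17802282. It had 12.6, 18.7 and 10.7 FPKM in the E-, P- and L-labelled libraries, the opposite order. The difference between the P- and L-labelled libraries was 1.74-fold and did not reach 2-fold. Within a library, the FPKM of ACSS2 was 12.4 times that of ACLY in the E-labelled, 5.44 times in the P-labelled and 26.1 times in the L-labelled library. ACSS2 was thus above ACLY in each library, by a margin that differed 4.79-fold between the lowest and the highest library. These are single genes of each route, and the citrate carrier SLC25A1, given below, had the order of ACSS2.

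Carboxylation and chain synthesis. ACACA, acetyl-CoA carboxylase, which makes malonyl-CoA in the committed step, is listed on scaffold NW_005100883.1 from 7225764 to 7442934. It had 106 FPKM in the E-labelled, 51.1 in the P-labelled and 196 in the L-labelled library. The ratio was 3.84-fold between the L- and P-labelled libraries and 2.08-fold between the E- and P-labelled libraries. FASN, fatty acid synthase, the multifunctional enzyme that builds the chain, is listed on scaffold NW_005100886.1 from 26279174 to 26296402. It had 1175, 508 and 2036 FPKM in the E-, P- and L-labelled libraries, which placed it at rank 27, 44 and 11 of the protein-coding genes. FASN showed the largest ratio of the 10 genes between the L- and P-labelled libraries, 4.01-fold, and this log2 ratio of 2.003 was above that of 98.2% of the 12807 protein-coding genes compared. The ratio of FASN to ACACA hardly moved, at 11.1, 9.93 and 10.4 in the E-, P- and L-labelled libraries. Both genes of the malonyl-CoA route were thus lowest in the P-labelled and highest in the L-labelled library, in nearly the same proportion.

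**Figure D1:**
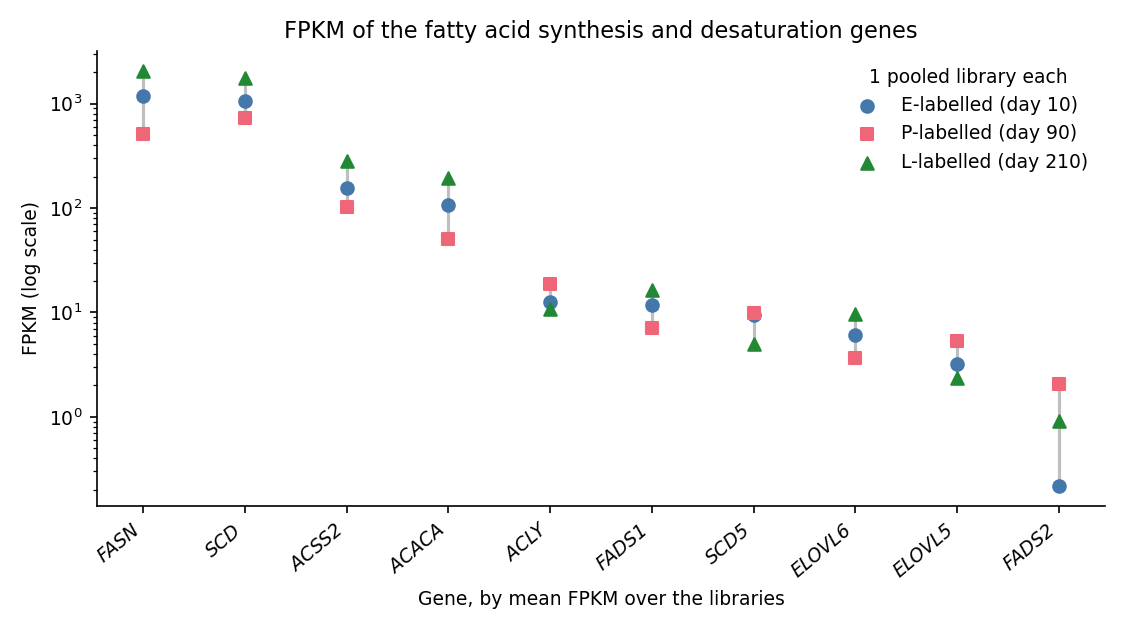
FPKM on a log axis of each of the 10 genes, ordered by mean, in the E-, P- and L-labelled libraries, with 1 point per pooled library and a grey line from the lowest to the highest. FASN and SCD reach 2036 and 1746 FPKM in the L-labelled library, while FADS2 lies between 0.220 and 2.08 FPKM.

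Elongation. ELOVL6, which lengthens saturated and monounsaturated chains such as palmitate, is listed on scaffold NW_005100691.1 from 3775614 to 3915585. It had 6.03 FPKM in the E-labelled, 3.63 in the P-labelled and 9.64 in the L-labelled library, and was 2.66-fold higher in the L- than in the P-labelled library. ELOVL5, which lengthens polyunsaturated chains, is listed on scaffold NW_005100916.1 from 22767132 to 22835716. It had 3.21, 5.33 and 2.37 FPKM in the E-, P- and L-labelled libraries and was 2.25-fold higher in the P- than in the L-labelled library. The elongases therefore ran in opposite orders. The FPKM of ELOVL6 was 1.88 times that of ELOVL5 in the E-labelled library and 4.07 times in the L-labelled library, but 0.680 times in the P-labelled library, the only one of the 3 in which ELOVL5 was above ELOVL6.

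Delta-9 desaturation. SCD, stearoyl-CoA desaturase, which makes oleate from stearate, is listed on scaffold NW_005100946.1 from 4467046 to 4477650. It had 1056 FPKM in the E-labelled, 736 in the P-labelled and 1746 in the L-labelled library, at rank 29, 24 and 14 of the protein-coding genes. It was 2.37-fold higher in the L- than in the P-labelled library, a smaller ratio than that of FASN, and the ratio of FASN to SCD was 1.11, 0.690 and 1.17 in the E-, P- and L-labelled libraries. FASN was thus the higher of the pair in the E- and L-labelled libraries and SCD in the P-labelled one. SCD5, the second delta-9 desaturase, best known from the brain, is listed on scaffold NW_005100697.1 from 12208451 to 12288849. It had 9.51, 9.90 and 4.95 FPKM, so its E- and P-labelled values were close and the L-labelled value was lowest. The ratio of the P- to the L-labelled library was 2.001, at the threshold itself. SCD exceeded SCD5 by 111 times in the E-labelled, 74.4 times in the P-labelled and 353 times in the L-labelled library, so that nearly all delta-9 desaturase FPKM came from SCD.

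Front-end desaturation. FADS1, the delta-5 desaturase, and FADS2, the delta-6 desaturase, act on polyunsaturated chains, and their genes are neighbours on scaffold NW_005100975.1. FADS1 is listed from 1171402 to 1182820 and FADS2 from 1274674 to 1303504, with 91853 nt between the loci. FADS1 had 11.7 FPKM in the E-labelled, 7.06 in the P-labelled and 16.6 in the L-labelled library and was 2.35-fold higher in the L- than in the P-labelled library, the same order as FASN. FADS2 had 0.220, 2.08 and 0.919 FPKM, lowest in the E-labelled and highest in the P-labelled library. These neighbouring genes thus differed in order, and the FPKM of FADS1 was 53.1, 3.40 and 18.0 times that of FADS2 in the E-, P- and L-labelled libraries. FADS2 was at rank 12877 of 13023 in the E-labelled library, and at this level its ratios rest on a low value in 1 library, which was not read as absence.

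**Figure D2:**
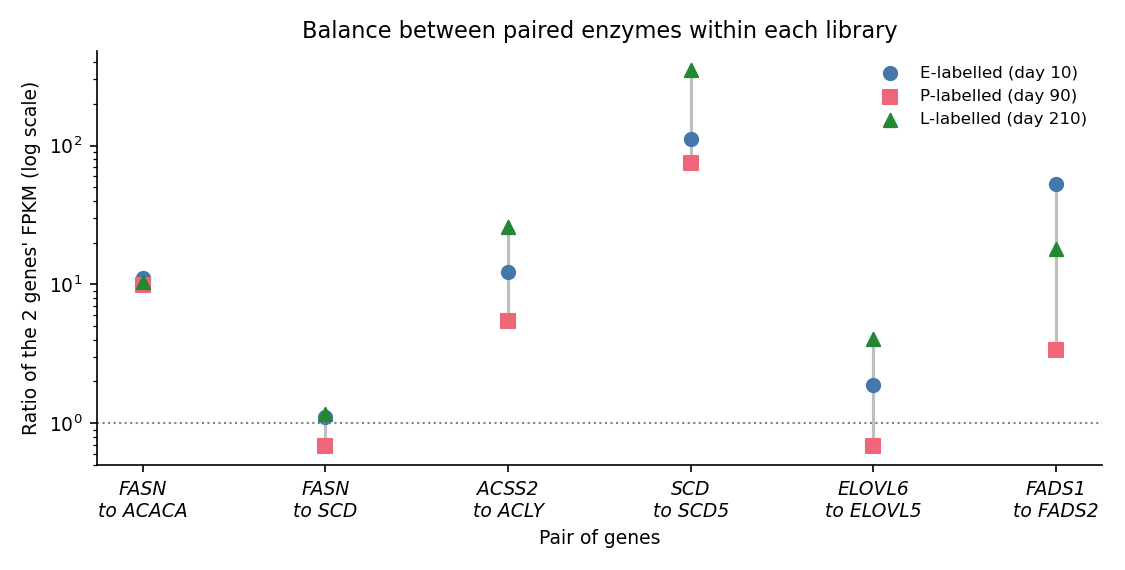
Ratio of the FPKM of each gene pair within the E-, P- and L-labelled libraries on a log axis, where the dotted line marks equal FPKM. The ratio of FASN to ACACA stays between 9.93 and 11.1, whereas that of FADS1 to FADS2 ranges from 3.40 to 53.1.

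Set side by side in deposited FPKM, the 10 genes fell into a group of 6 and a group of 4. ACSS2, ACACA, FASN, ELOVL6, SCD and FADS1 were highest in the L-labelled, intermediate in the E-labelled and lowest in the P-labelled library. ACLY, SCD5 and ELOVL5 had the reverse order, and FADS2 was highest in the P-labelled and lowest in the E-labelled library. The first order was that of 26.4% of the 12764 protein-coding genes above 0 in all libraries, and the reverse order that of 30.3%, so both are common orders. The first order together with a ratio of at least 2-fold between the L- and P-labelled libraries was seen in 6 of the 10 genes and in 6.63% of protein-coding genes.

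The order of the E- and P-labelled values depends on the scale. All protein-coding genes together summed to 478221, 275836 and 421182 FPKM in the E-, P- and L-labelled libraries, and a single unannotated locus held 30.0%, 46.0% and 29.9% of all FPKM. As a share of protein-coding FPKM, the log2 ratios of P over E of all genes move up by 0.79, and ACSS2, ELOVL6, SCD and FADS1 then turn to 0.17, 0.06, 0.27 and 0.07, no longer lowest in the P-labelled library. FASN and ACACA were still lowest there, at -0.42 and -0.26. The L-labelled library was the highest for all 6 genes on this scale too. CSN1S1, CSN3, LALBA, BTN1A1, XDH and ELF5 alone held 26.3%, 12.0% and 17.5% of the protein-coding sums in the E-, P- and L-labelled libraries. LALBA was at 0 in the L-labelled library. The median FPKM of protein-coding genes above 0 was 7.05, 7.23 and 6.92 in the deposited scale.

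Between the P- and L-labelled libraries, 9 of the 10 genes were 2-fold or more apart, against 24.7% of 12807 protein-coding genes. Higher in the L-labelled library were 6 of them, against 8.57% of protein-coding genes, and higher in the P-labelled library were SCD5, ELOVL5 and FADS2, against 16.2%. The median log2 ratio of the 10 genes was 1.24, against -0.02 for all protein-coding genes. A ratio of 4-fold was reached by FASN alone, with ACACA next at 3.84-fold. When FPKM were rescaled to the sum of protein-coding genes without the 20 most abundant ones, all log2 ratios of L over P shifted by -0.26, and the split became 4 genes higher in the L-labelled and 4 in the P-labelled library. In that scaling SCD and FADS1, with log2 ratios of 0.99 and 0.98, no longer reached 2-fold, and ACLY did, at -1.06. As a share of protein-coding FPKM, only FASN and ACACA stayed at least 2-fold higher in the L-labelled library, at 1.39 and 1.33, and ACLY, SCD5, ELOVL5 and FADS2 were at least 2-fold higher in the P-labelled one. Conversely, none of SCD5, ELOVL5 and FADS2 reached 2-fold with a pseudocount of 1 or after division by the luminal markers described below, the latter at -0.81, -0.98 and -0.99.

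Between the E- and P-labelled libraries, 3 of the 10 genes were 2-fold or more apart, against 17.2% of 12937 protein-coding genes. ACACA and FASN were lower in the P-labelled library, with log2 ratios of -1.05 and -1.21, against 6.69% of protein-coding genes. FADS2 was higher in it, with a log2 ratio of 3.24, against 10.5%. The other genes of the first group had log2 ratios from -0.73 for ELOVL6 and FADS1 to -0.52 for SCD, below 2-fold. The median of the 10 genes was -0.57, against 0.01 for all protein-coding genes. The rescaling without the 20 most abundant genes moved all log2 ratios of P over E by 0.27, after which ACACA and FASN stood at -0.78 and -0.94, below 2-fold, and ELOVL5 and FADS2 were at least 2-fold higher in the P-labelled library. As a share of protein-coding FPKM, ACLY, ELOVL5 and FADS2 were at least 2-fold higher in the P-labelled library and none of the 10 genes was 2-fold lower.

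Between the E- and L-labelled libraries, FADS2 alone differed at least 2-fold, 1 of 10 genes, against 7.08% of 12777 protein-coding genes, and 1.64% for those higher in the L-labelled library. Its ratio was 4.18-fold, between 0.220 and 0.919 FPKM, and it was not reached with a pseudocount of 1. As a share of protein-coding FPKM, ACACA and ACSS2 also reached 2-fold, at log2 ratios of 1.07 and 1.02. These calls rest on LALBA, which enters the sums with 70053 FPKM in the E-labelled and 0 in the L-labelled library. The 6 genes of the first group were all higher in the L-labelled library by less than 2-fold, from 1.42-fold for FADS1 to 1.85-fold for ACACA. Few protein-coding genes were higher by as much, since these 6 log2 ratios were above those of 94.0% to 97.9% of them. The group was formed by its order, which places L above E, so this direction is fixed and the ranks only describe its size. SCD5 was 1.92-fold lower, ELOVL5 1.36-fold lower and ACLY 1.18-fold lower in the L-labelled library. Each library enters 2 of the 3 comparisons, which are therefore dependent.

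**Figure D3:**
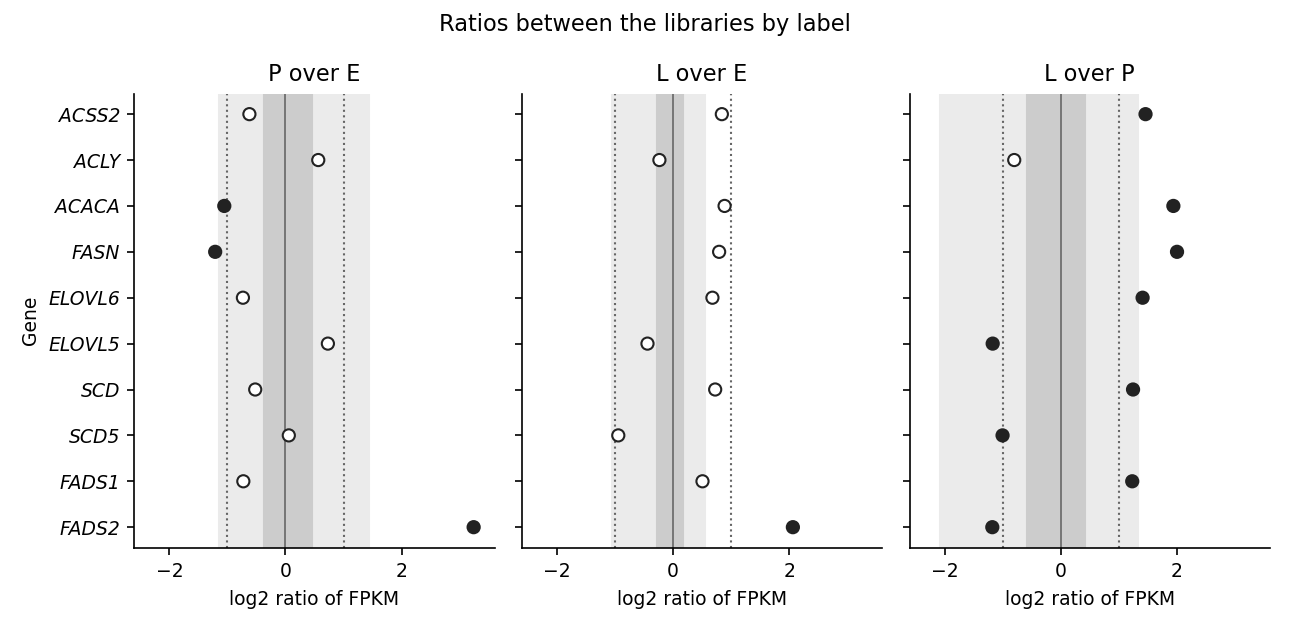
log2 ratio of FPKM of each of the 10 genes for P over E, L over E and L over P, by label, with filled points at 2-fold or more, dotted lines at 2-fold, and dark and light bands for the 25th to 75th and 5th to 95th percentiles of all protein-coding genes. In L over P, 6 genes lie to the right of the 2-fold line and 3 at or beyond it on the left.

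Most of the FPKM of the pathway came from few genes. The 10 genes summed to 2537 FPKM in the E-labelled, 1443 in the P-labelled and 4303 in the L-labelled library, which was 0.530%, 0.523% and 1.02% of all protein-coding FPKM, so the E- and P-labelled libraries differed in the sum and hardly in the share. FASN and SCD together held 88.0%, 86.2% and 87.9% of these sums. The 4 genes above 50 FPKM in each library, FASN, SCD, ACSS2 and ACACA, summed to 3.05-fold more in the L- than in the P-labelled library, whereas the sum of the other 6 genes was 43.3, 46.7 and 45.2 FPKM and hardly differed between libraries. The 4 abundant genes held 98.3%, 96.8% and 98.9% of the sums, so the difference in the summed FPKM had to lie in them. Differences among the 6 genes of low abundance ran in opposite directions.

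In deposited FPKM, markers of some cell types moved with these values, and those of others did not. The 6 secretory markers (CSN1S1, CSN3, LALBA, BTN1A1, XDH and ELF5) were all at least 2-fold lower in the P- than in the E-labelled library, and the 5 of them above 0 in the L-labelled library were at least 2-fold higher there than in the P-labelled library. Without LALBA they summed to 55880, 18000 and 73647 FPKM in the E-, P- and L-labelled libraries, the same order as FASN. The luminal markers KRT8, KRT18, KRT19, EPCAM and CDH1 did not follow, since none differed 2-fold and their sum was 698, 740 and 650 FPKM. This contrast depends on the scale. As a share of protein-coding FPKM the luminal sum was 0.146%, 0.268% and 0.154%, and log2 ratios of P over E move up by 0.79. KRT8 and KRT18, at 0.64 and 0.61 in deposited FPKM, then pass 2-fold, and CSN1S1, at -1.06, is no longer 2-fold lower in the P-labelled library. Relative to the luminal sum, FASN stood at 1.68, 0.686 and 3.13 and SCD at 1.51, 0.994 and 2.68 in the E-, P- and L-labelled libraries. The order of both genes was unchanged by this scaling. The leukocyte markers summed to 62.6, 133 and 40.7 FPKM, highest in the P-labelled library, and 4 of the 5 with values in both were at least 2-fold lower in the L- than in the P-labelled library, among them the plasma cell gene MZB1 at 14.99, 50.8 and 11.4 FPKM. CD3E was listed at 0 in the E- and P-labelled libraries. In bulk tissue, fewer cells of a type and less RNA per cell cannot be told apart, and the part of cell composition in the results was not tested.

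Adipocytes also make fatty acids. Of 8 adipocyte markers 6 were matched, and their sum of 665, 205 and 827 FPKM was nearly all CIDEA, a lipid droplet gene that the lactating mammary cell also uses. The other 5 (ADIPOQ, PLIN1, PLIN4, CIDEC and LIPE) summed to 22.0, 8.40 and 10.5 FPKM, with ADIPOQ at 15.1, 4.10 and 5.69 FPKM and PLIN4 at 0 in the L-labelled library. This sum was highest in the E-labelled library and mostly ADIPOQ. LIPE, the hormone-sensitive lipase, had 3.06, 1.97 and 4.12 FPKM, the order of FASN. The part of adipocytes in the results was not tested. The fibroblast markers summed to 664, 549 and 542 FPKM, the endothelial ones to 117, 104 and 126 FPKM and the myoepithelial ones to 180, 185 and 164 FPKM. Single markers within these sums ran in opposite directions. PDGFRA and DCN were 2.48- and 2.41-fold higher in the P- than in the L-labelled library, and COL1A2 and COL3A1 were 2.099- and 2.08-fold lower in the P- than in the E-labelled library. OXTR, the oxytocin receptor, had 3.83, 1.14 and 5.43 FPKM, the order of FASN.

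Genes that feed or assist the pathway were taken from 7 lists, and 44 of their 51 genes were matched. Between the P- and L-labelled libraries, 10 of 43 such genes were at least 2-fold higher in the L-labelled and 5 in the P-labelled library, 34.9% in all against 24.7% of protein-coding genes, with a median log2 ratio of 0.35. Between the E- and P-labelled libraries, 4 of 44 were at least 2-fold higher and 6 lower in the P-labelled library, and between the E- and L-labelled libraries only ME1 was higher and only THRSP lower in the L-labelled library, of 43. These shares of 22.7% and 4.65% lie near the 17.2% and 7.08% of all protein-coding genes. All these counts are in deposited FPKM and depend on the scale. Log2 ratios of L over P shift by -0.26 without the 20 most abundant genes and by -0.61 as a share of protein-coding FPKM. PRKAB1, HSD17B12 and TECR, at 1.01, 1.02 and 1.05, then fall below 2-fold. On either scale, list genes at least 2-fold higher in the P-labelled library outnumber those higher in the L-labelled one. Log2 ratios of P over E move up by 0.27 and 0.79. The counts by list that follow are of few genes, and stand against 8.57% of protein-coding genes at least 2-fold higher in the L- than in the P-labelled library, 16.2% higher in the P- than in the L-labelled library, and 10.5% higher and 6.69% lower in the P- than in the E-labelled library. Of 9 genes for acetyl-CoA and NADPH supply, 4 were at least 2-fold higher in the L- than in the P-labelled library and none was lower. IDH1, the cytosolic isocitrate dehydrogenase that supplies NADPH in ruminant mammary tissue, had 140, 51.8 and 157 FPKM in the E-, P- and L-labelled libraries. SLC25A1, the citrate carrier of mitochondria, had 92.2, 54.1 and 119 FPKM, PDHA1, a subunit of pyruvate dehydrogenase, 26.6, 14.7 and 30.2 FPKM, and PC, pyruvate carboxylase, 5.69, 2.73 and 6.77 FPKM. These 4 genes had the order of FASN in deposited FPKM. Their log2 ratios of L over P were at most 1.60, so all 4 fall below 2-fold as a share of protein-coding FPKM. SLC25A1 and PDHA1, at 1.13 and 1.04, also do so in the scaling without the 20 most abundant genes. ME1, malic enzyme, another source of NADPH, had 0.996, 2.39 and 2.43 FPKM and was far below IDH1 in each library.

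Among 9 regulators of acetyl-CoA carboxylase, 1 was at least 2-fold higher in the L- than in the P-labelled library, a share near that of all genes, and 2 were at least 2-fold lower in the P- than in the E-labelled library. PRKAB1, a subunit of the AMP-activated kinase that inhibits the carboxylase, had 29.7, 10.9 and 21.9 FPKM. THRSP, which promotes lipogenesis in the mammary gland, had 2.50, 1.02 and 1.01 FPKM, a level at which its 2-fold ratios rest on small values, and did not have the order of ACACA. ACACB, the mitochondrial carboxylase isoform, had 0.437, 0.753 and 0.395 FPKM, far below ACACA in each library.

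Of 3 other elongases matched, ELOVL7 and ELOVL4 were at least 2-fold higher in the P- than in the L-labelled library. ELOVL7, which acts on saturated long chains, had 2.46, 3.51 and 1.61 FPKM, and ELOVL4, which makes the longest chains, had 0.186, 0.942 and 0.171 FPKM. ELOVL1, the most abundant of all 5 elongases with values, had 24.1, 17.7 and 28.6 FPKM and did not differ 2-fold. Among 6 partners of the elongation cycle, TECR, the reductase of its last step, and HSD17B12, the ketoacyl-CoA reductase, were at least 2-fold higher in the L- than in the P-labelled library, at 33.95 against 16.3 FPKM and 30.4 against 14.97 FPKM. The dehydratases HACD3 and HACD4 were at least 2-fold lower, at 5.50 against 11.3 FPKM and 1.66 against 5.03 FPKM. Genes of the elongation cycle were thus found higher in either library.

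The list of other desaturases and desaturase electron transport had 3 matched genes of 8, and none differed 2-fold where both values were above 0. FADS6, a desaturase family member, had 0.546 and 0.850 FPKM in the E- and P-labelled libraries. It was listed at 0 in the L-labelled library, so it has no ratio there. CYB5A, the cytochrome b5 that passes electrons to desaturases, had 25.8, 20.1 and 32.9 FPKM. Mitochondrial fatty acid synthesis, a separate pathway that feeds lipoate synthesis, differed little. Of its 7 genes only CBR4, a subunit of a reductase, reached 2-fold, at 23.5 FPKM in the L- against 11.7 in the P-labelled library. Its ratio was 2.001, at the threshold itself. NDUFAB1, the acyl carrier protein, had 40.6, 25.2 and 41.3 FPKM. Among 7 other acyl-CoA synthetases, ACSL1, which activates long-chain fatty acids, had 98.6, 30.1 and 100.2 FPKM, and ACSS1, the mitochondrial acetyl-CoA synthetase, had 44.7, 16.2 and 48.9 FPKM. ACSL5 had the reverse order, with 7.73, 22.2 and 6.66 FPKM, and ACSL6 was low, with 0.402, 1.04 and 0.555 FPKM. Activating enzymes were thus found in both directions, with ACSL1 and ACSS1 at least 2-fold lower and ACSL5 and ACSL6 at least 2-fold higher in the P- than in the E-labelled library.

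**Figure D4:**
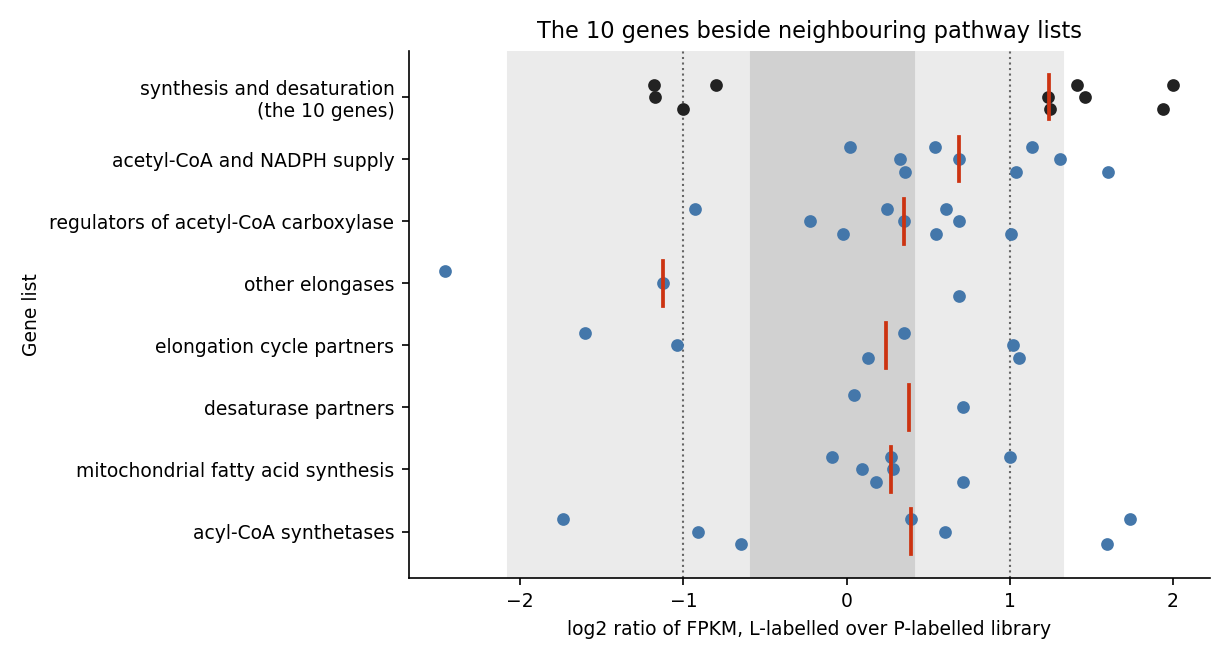
log2 ratio of FPKM of the L-labelled over the P-labelled library for each gene of the 10 genes and of the 7 pathway lists, with a red bar at the median of each list, dotted lines at 2-fold and grey bands as percentiles of all protein-coding genes (25th to 75th dark, 5th to 95th light). Of the 10 genes, 6 lie right of the 2-fold line, 3 at or beyond it on the left, and ACLY at -0.80, with a median of 1.24.

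The genes closest to FASN and SCD in the pattern over the 3 libraries were sought among 4972 protein-coding genes with a mean of at least 10 FPKM, by the distance between their log2 ratios of P over E and L over E. The 5 closest to FASN were TMEM125, PLOD2, LPL, EPHA6 and ACACA, at distances of 0.02, 0.10, 0.14, 0.18 and 0.18. LPL, the lipase that releases fatty acids from blood lipoproteins for uptake, had 683, 269 and 1145 FPKM. ACACA was thus the gene of the pathway nearest to FASN, and SCD was only at position 284. The 5 closest to SCD were KLHDC4, LOC102169098, TSPAN13, DHCR7 and BCAP31, at distances of 0.04 to 0.11, and ACSS2 was at position 9. DHCR7, the enzyme of the last step of cholesterol synthesis, had 19.3, 12.7 and 31.6 FPKM. With 3 libraries this likeness is a description, and nearby genes are many.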

How the data were processed

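The authors used Trimmomatic for trimming, TopHat2 2.0.9 for mapping, Cufflinks 2.1.1 and Cuffmerge for assembly and Cuffdiff for abundance. What they deposited is 1 table of 50041 loci with an FPKM for each library, and the sample labels name the column of each stage. Of deposited values with 7 digits, 95.7% to 99.3% end in 5, as means of 2 values would. The sources used here do not mention such averaging.

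Symbols and gene classes were looked up by NCBI gene ID in the RefSeq table of ARS1.2, which held 14403 of the 15274 loci with a single ID, and loci of one ID were summed. Ratios were taken of FPKM above 0 in both libraries and called at 2-fold. No test was run. Counting was tested on simulated data whose differences lay clear of the threshold, which checks the counting alone and not the results. All 10 genes are named, and of the lists the genes at least 2-fold different and the most abundant one. ACACB was named after its values were seen. The 10 genes and the lists were chosen with earlier results of these data known. Alternatives were other folds, pseudocounts, filters and scalings, some added after seeing the data, and exchanged columns. Python 3.11.15, numpy 2.4.6, pandas 2.3.3 and matplotlib 3.10.9 were used.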

Additional observations from a re-analysis of the deposited data

How the results depend on the processing

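The number of the 10 genes at least 2-fold different was 3 for P over E, 1 for L over E and 9 for L over P. At a fold of at least 1.5 it was 7, 7 and 10, against 36.4%, 16.3% and 43.1% of protein-coding genes. At a fold of at least 4 it was 1 in each comparison, against 2.94%, 1.57% and 7.18%, FADS2 in the comparisons with the E-labelled library and FASN in L over P. These settings change the count by construction. In L over E, a pseudocount of 1 left 0 genes, as did leaving out genes under 1 FPKM in both libraries, because the FPKM of FADS2 is below 1 in both libraries. Rescaling without the 20 most abundant genes gave 2 genes for P over E, both higher in the P-labelled library. It also moved the share of 2-fold calls over all protein-coding genes that were higher in the P- than in the E-labelled library from 61.1% to 80.2%, and that of calls higher in the L- than in the P-labelled library from 34.6% to 21.3%. As a share of protein-coding FPKM, chosen after seeing the data, 3, 3 and 6 genes differed, against 38.7%, 6.39% and 34.9% of protein-coding genes. The sums behind these shares include LALBA, listed at 0 in the L-labelled library, which raises the shares of other genes there. The majority of the calls turned in P over E, where all 3 were higher in the P-labelled library, and in L over P, where 4 of 6 were. Of the calls over all protein-coding genes, 95.2% were then higher in the P- than in the E-labelled library, 9.57% in the L- than in the P-labelled library, and 39.2% against 23.2% in the L- than in the E-labelled library. Exchanging the columns labelled peak and late gave 1, 3 and 9 genes and reversed the directions by construction. The log2 ratios of P over E became 0.89 for ACACA and 0.79 for FASN. Those of L over P became -1.94 for ACACA, -2.00 for FASN, -1.46 for ACSS2, -1.25 for SCD, -1.41 for ELOVL6, -1.23 for FADS1, 1.001 for SCD5, 1.17 for ELOVL5 and 1.18 for FADS2. For L over P, a pseudocount of 0.1 gave 8 genes and a pseudocount of 1 gave 6, and dividing by the luminal markers, chosen after seeing the data, also gave 6, all higher in the L-labelled library. Centring on the median, setting 0 to 0.001 and using the most abundant locus left each count as it was. No paired analysis was possible because only 1 library was made per stage. The spread between goats and the depth behind each FPKM remain unknown.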

Other observations

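Assembled loci without a gene ID lay near some of the 10 genes, a comparison chosen after seeing the data. Within 10000 nt of the 10 genes there were 10 such loci, of which 4 were near SCD, 2 near ELOVL5 and 1 each near ACACA, SCD5, FADS1 and FADS2. Such loci near other genes were not counted, so these numbers have no background share. Their values were low beside SCD and ACACA. The highest was XLOC_037226, of 223 nt, at 3586 nt from ACACA, with 15.9, 1.04 and 4.25 FPKM in the E-, P- and L-labelled libraries. Its highest value was in the E-labelled library, unlike that of ACACA. XLOC_049979 lies at 185 nt from FADS1 and had 1.11, 1.54 and 1.68 FPKM, and it is the only deposited locus between FADS1 and FADS2. The 4 loci near SCD had means of 0.768 to 2.56 FPKM and did not all go in one direction between the P- and L-labelled libraries. At these levels ratios rest on small values. Whether these loci belong to the transcripts of the neighbouring genes was not tested.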
